A study of Mus musculus with 13 samples.

Results

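The 10 genes described here encode the calcium signalling machinery of the mouse egg. They were listed by name from what is known of egg activation, though earlier results of these data were known when they were chosen. They are the 3 inositol trisphosphate (IP3) receptors Itpr1, Itpr2 and Itpr3, the plasma membrane channels Cacna1h, Trpm7 and Trpv3, the store-operated entry pair Stim1 and Orai1, the kinase subunit Camk2g and the calcineurin subunit Ppp3ca. All 10 were found among the 54232 genes of the count table, and all 10 were among the 20143 genes with enough counts to be tested.

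The libraries were made from the polyadenylated RNA of 13 pools, each holding 25 mouse oocytes or eggs. Germinal vesicle (GV) oocytes are fully grown and arrested in the first meiotic prophase, and metaphase II (MII) eggs are the mature cells that a sperm fertilises. Wild-type (WT) females gave 3 pools of GV oocytes and 3 of MII eggs, and Sirena1 Null females gave 3 and 4. Sirena1 is a long noncoding RNA, and per the labels the Null allele is a Cas9-made deletion of its promoter, carried on a C57BL/6NCrl background, with the libraries labelled C57BL6/J. Every female was superovulated, and GV oocytes were collected in medium with IBMX, an inhibitor that holds meiotic arrest. The labels give no ages, and they do not say whether the pools of a group came from separate females, so p-values measure the spread between these pools only.

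At fertilisation the sperm brings a phospholipase C, PLCZ1, into the egg. The IP3 it makes opens IP3 receptors on the endoplasmic reticulum, and calcium leaves the store in repeated waves. Plasma membrane channels refill the store between waves. The kinase CaMKII and other calcium-dependent enzymes then release the egg from its metaphase arrest and set off cortical granule exocytosis. In mouse eggs IP3R1 is regarded as the main release channel, and CaV3.2, TRPM7 and TRPV3 have been described as the channels that carry calcium in. The gamma subunit is the CaMKII form that mouse eggs need for activation.

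Sirena1 itself checked the labels. It stood at 3006 ± 90.2 CPM (SD, n = 3) in GV WT and 4519 ± 221 in MII WT, against 24.8 ± 1.58 (n = 3) in GV Null and 41.3 ± 4.41 (n = 4) in MII Null. CPM is the count of a gene relative to the library's total, scaled by edgeR's TMM factors, and all levels below are in this unit. Total counts ran from 30867614 to 41285507 per library. The 12 oocyte marker genes summed to between 11687 and 16877 CPM and each was detected, so the libraries carried the labelled cell type. Cumulus and granulosa cells surround the oocyte in the follicle, and 21 of their marker genes summed to 276 to 302 CPM in GV WT. The sum was 344 to 357 CPM in MII WT, and MII Null had 364 to 377 CPM. In GV Null they summed to 292, 861 and 448 CPM in replicates 1, 2 and 3. Of the 21 markers, 3 were above 10 CPM in every library: Serpine2 (163 to 268 CPM), Nr5a2 (52.3 to 82.6 CPM) and Cyp19a1 (24.4 to 38.8 CPM). In MII WT replicate 1 these 3 read 233, 59.9 and 38.8 CPM of a sum of 344 CPM. The higher sum in eggs than in GV WT therefore cannot be read as more cumulus or granulosa cell RNA. In eggs, 6 of the 21 had no count in any MII WT library and 2 had none in any MII Null library. On the first principal component, which held 75.8% of the variance, MII Null replicate 4 stood at 26.5 and the other 6 egg libraries at 38.5 to 50.8. GV Null replicates 2 and 3 stood at -62.4 and -55.2, and the other 4 oocyte libraries at -47.7 to -43.5. Leaving out MII Null replicate 4 changed no call among the 10 genes. No gene lengths came with the counts, so a level is compared between libraries and never between genes. In these pools fewer cells of a type and less RNA per cell cannot be told apart.

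Promoter sequences of RefSeq (GRCm38.p6) covered 6 of the 10 genes, Itpr2, Itpr3, Trpm7, Trpv3, Stim1 and Orai1. The 120 bases just before the gene are shown for 3 of the channels that carry calcium across the plasma membrane. These 3 were chosen after their mRNA levels were seen. From GV to MII in WT, Orai1 rose, Trpm7 fell and Trpv3 did not pass the test described below. Whether the sequences bear on these courses was not tested. Capitals mark matches to an E-box (in Trpm7 and Trpv3), a CCAAT box and a GC box (in Orai1), motifs chosen after the sequences were seen.
Trpm7, chr2:126876262-126876381, minus strand: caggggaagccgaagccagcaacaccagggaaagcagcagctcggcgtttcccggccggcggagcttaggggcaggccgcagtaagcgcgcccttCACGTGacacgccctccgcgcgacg
Trpv3, chr11:73267369-73267488, plus strand: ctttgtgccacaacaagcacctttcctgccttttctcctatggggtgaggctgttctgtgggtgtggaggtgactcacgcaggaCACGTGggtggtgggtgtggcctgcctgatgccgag
Orai1, chr5:123014954-123015073, plus strand: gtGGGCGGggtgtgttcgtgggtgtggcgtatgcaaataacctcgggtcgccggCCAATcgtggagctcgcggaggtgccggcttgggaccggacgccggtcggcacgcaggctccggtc
Over the 250 bases before the table's transcription start, which lies inside the gene's span for Trpv3, Itpr3 and Stim1, searched on both strands, the E-box CACGTG stood in 3 of the 6 promoters, in Trpm7, Trpv3 and Itpr3. It stood in 6.02% of the 32851 promoters of that length in the table. CCAAT was found in Orai1 and Itpr2 and in 33.8% of all promoters, and the GC box GGGCGG in Itpr2, Itpr3, Stim1 and Orai1 and in 32.7% of all. TATAAA was in 0 of the 6 and in 12.4% of all. The Trpv3 promoter held 3 CG dinucleotides, the other 5 held 22 to 31, and the median of all promoters was 6. A match describes the letters only.

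Between GV oocytes and MII eggs of WT females, the mRNAs of 3 of the 10 genes were higher in eggs, those of Orai1, Cacna1h and Camk2g. Trpm7 was lower. The other 6 did not pass edgeR's quasi-likelihood test, in which p-values were adjusted by Benjamini-Hochberg over all 20143 genes at a threshold of 0.05. The 4 calls are read against a background of 42.7% of all tested genes, 19.9% higher and 22.8% lower, so 4 of 10 is a share near that of genes at large. In 7 of the 10 genes the WT libraries of the 2 stages did not overlap, against 58.3% of all tested genes. The median log2 difference of the 10 genes was 0.14, and that of all tested genes was 0.01. All differences are relative to the total mRNA of a library, since the Renilla RNA added to each sample has no line in the count table. The libraries hold polyadenylated RNA, so a change in the amount of an mRNA and a change in its poly(A) tail cannot be told apart.

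**Figure D1:**
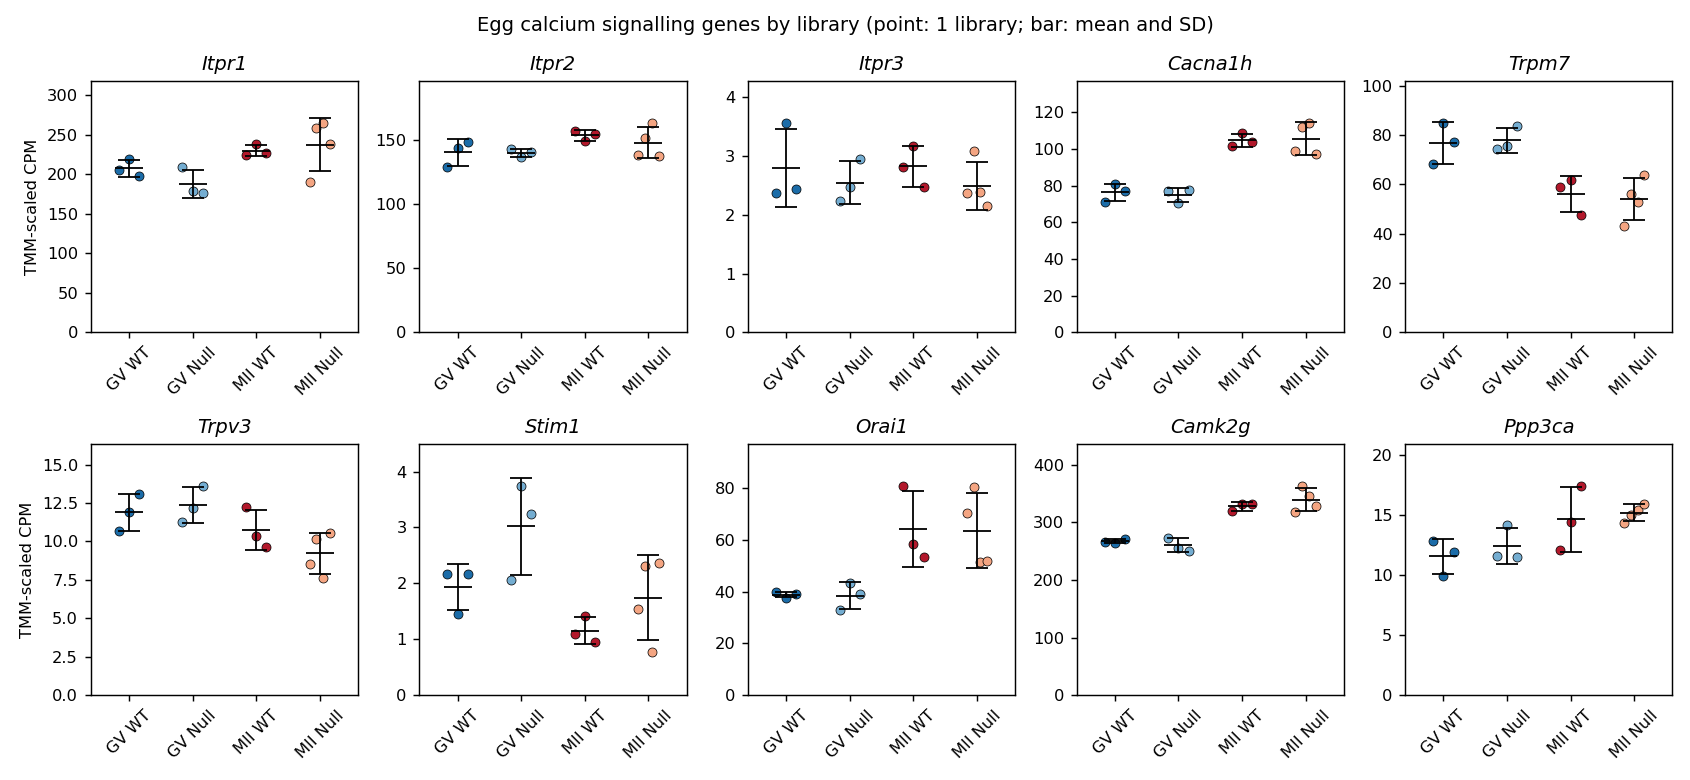
Level of each of the 10 genes in each library, in TMM-scaled CPM on a linear axis that starts at 0 and differs between panels. Points are libraries, and bars give the mean and SD of GV WT, GV Null, MII WT and MII Null; the egg libraries of Cacna1h, Camk2g and Orai1 all sit above the oocyte libraries, and those of Trpm7 all sit below them.

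Among the release channels, Itpr1 (chr6:108213083-108551116 in GRCm38.p6, as all gene positions here) encodes the IP3 receptor through which sperm-triggered calcium leaves the store. Its WT level was 206, 219 and 198 CPM in GV oocytes and 224, 238 and 226 CPM in MII eggs. The 2 sets did not overlap, but they lay close together. The difference was 0.15 on the log2 scale (SE 0.10, 95% interval -0.07 to 0.36) and did not pass the test (edgeR, adjusted p = 0.264). In Null libraries Itpr1 read 209, 178 and 176 CPM in GV oocytes and 189.8, 258, 265 and 237 CPM in MII eggs. There egg replicate 1 lay below oocyte replicate 1, and the other 3 egg libraries lay above every oocyte library. The rise in Null passed the test, at 0.34 on the log2 scale (SE 0.10, adjusted p = 0.00704 by edgeR), a 1.27-fold difference. It was 0.19 with adjusted p = 0.341 without GV Null replicates 2 and 3, the libraries with the raised cumulus marker sums of 861 and 448 CPM. The part of those markers in this result was not tested.

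Itpr2 (chr6:146108299-146502258) encodes another IP3 receptor. It read 128, 143 and 148 CPM in GV WT and 157, 149 and 154 CPM in MII WT, which is a narrow gap with no overlap. The WT difference of 0.13 (SE 0.08) did not pass (edgeR, adjusted p = 0.196). In Null the levels of 142, 137 and 140.1 CPM in oocytes and 138, 151, 163 and 137 CPM in eggs overlapped, and the difference was 0.08 (adjusted p = 0.407 by edgeR). Counts of Itpr1 per count of Itpr2 ran from 1.33 to 1.60 in GV WT and from 1.43 to 1.60 in MII WT. They ran from 1.26 to 1.47 in GV Null and from 1.37 to 1.73 in MII Null. Those ratios depend on the lengths of both mRNAs and describe the libraries only.

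Itpr3 (chr17:27057002-27122223), the IP3 receptor of many secretory epithelia, had few counts, between 69 and 142 in a library. Its oocyte libraries spanned 2.37 to 3.56 CPM in WT and 2.23 to 2.94 CPM in Null. Its egg libraries spanned 2.48 to 3.17 CPM in WT and 2.14 to 3.08 CPM in Null. All 4 groups overlapped. The 95% interval of the WT stage difference ran from 0.734-fold to 1.39-fold, so a change of that size was not resolved. Itpr3 made up 0.79% of the counts on the 3 IP3 receptor genes in GV WT and 0.73% in MII WT.

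The entry channels moved in different directions. Cacna1h (chr17:25374285-25436334) encodes the pore of the T-type channel CaV3.2, which opens at negative membrane potentials. It read 71.3, 80.7 and 76.9 CPM in GV WT and 102, 108 and 104 CPM in MII WT. Every egg library was above every oocyte library. The WT rise was 0.46 on the log2 scale (SE 0.08, 95% interval 0.28 to 0.63), a 1.37-fold difference (edgeR, adjusted p = 0.000213). Null libraries repeated the separation, with 76.8, 70.5 and 77.6 CPM in oocytes and 99.0, 112, 114 and 97.0 CPM in eggs. The Null rise was 1.41-fold (0.49, SE 0.08, adjusted p = 4.45e-05 by edgeR).

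Trpm7 (chr2:126791558-126876261) encodes a channel for magnesium, calcium and zinc that carries a kinase domain on the same protein. Its WT levels were 68.1, 84.9 and 77.3 CPM in GV oocytes and 58.9, 61.8 and 47.8 CPM in MII eggs. The lowest oocyte library stood above the highest egg library. Eggs were at 0.732 of the oocyte level (log2 -0.45, SE 0.13, edgeR adjusted p = 0.00791). This call rested on MII WT replicate 3, the lowest of its group, without which the difference was -0.35 with adjusted p = 0.0559. In Null the levels fell from 74.4, 75.6 and 83.6 CPM to 43.3, 56.2, 52.9 and 64.0 CPM, again with no overlap. The Null ratio was 0.695 (log2 -0.53, SE 0.12, adjusted p = 0.00125 by edgeR), and without GV Null replicates 2 and 3 it was -0.46 on the log2 scale with adjusted p = 0.0616.

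Trpv3 (chr11:73267489-73300368) encodes a channel whose current has been described to appear during oocyte maturation. Its mRNA read 10.7, 11.9 and 13.1 CPM in GV WT and 12.2, 10.4 and 9.65 CPM in MII WT. These sets overlapped, and the difference of -0.15 (SE 0.14, 95% interval -0.45 to 0.16) did not pass (edgeR, adjusted p = 0.444). In Null the levels were 11.3, 12.2 and 13.6 CPM in oocytes and 8.55, 10.2, 7.63 and 10.5 CPM in eggs, with every egg library below every oocyte library. That fall passed the test at 0.745 of the oocyte level (log2 -0.43, SE 0.13, adjusted p = 0.014 by edgeR). It did not pass without GV Null replicate 3 (-0.35, adjusted p = 0.0768) or without GV Null replicates 2 and 3 (-0.29, adjusted p = 0.319). Whether the Null fall differed from the WT fall was tested directly, and it did not pass (difference of -0.28, SE 0.20, adjusted p = 0.999 by edgeR).

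For store-operated entry, STIM1 senses an empty store from within the endoplasmic reticulum and ORAI1 forms the plasma membrane channel that it opens. Orai1 (chr5:123015074-123030452) read 39.7, 37.8 and 39.3 CPM in GV WT and 81.1, 58.7 and 53.4 CPM in MII WT. Oocyte libraries lay close together, egg libraries were spread wide, and the stages did not overlap. The coefficient of variation was 2.64% in GV WT and 22.9% in MII WT. The 1.65-fold WT rise (log2 0.73, SE 0.18, 95% interval 0.33 to 1.12) was the largest upward difference of the 10 genes (edgeR, adjusted p = 0.0054). Null oocytes read 32.9, 43.3 and 39.2 CPM and Null eggs 70.5, 80.7, 51.7 and 51.7 CPM. That is a 1.66-fold rise (0.73, SE 0.17, adjusted p = 0.00314 by edgeR), with the same wide spread among eggs.

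Stim1 (chr7:102261514-102437319) had few counts, between 24 and 143 in a library. It read 2.17, 1.45 and 2.17 CPM in GV WT and 1.09, 1.41 and 0.953 CPM in MII WT, so the stages were separated by a narrow gap. The difference of -0.75 (SE 0.35, 95% interval 0.356-fold to 0.998-fold) did not pass after adjustment (edgeR, adjusted p = 0.0993). Null oocytes read 2.06, 3.75 and 3.24 CPM and Null eggs 1.55, 2.31, 0.763 and 2.36 CPM, which overlap. There the fall of 0.79 on the log2 scale (SE 0.31) passed with adjusted p = 0.044 by edgeR. It did not pass without GV Null replicate 2 (-0.60, adjusted p = 0.183), GV Null replicate 3 (-0.73, adjusted p = 0.117), MII Null replicate 1 (-0.77, adjusted p = 0.0776) or MII Null replicate 3 (-0.57, adjusted p = 0.0962). Without both GV Null replicates 2 and 3 it was -0.24 (adjusted p = 0.752). Counts of Orai1 per count of Stim1 were 18.1 to 26.0 in GV WT and 41.5 to 74.2 in MII WT, with no overlap. In Null they were 11.6 to 15.9 in oocytes and 21.9 to 67.8 in eggs. The pseudogene Gm18255, which lies inside Stim1, had 2 to 13 counts, and the strand setting of the counting is not given in the sources used here.

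Downstream of calcium, Camk2g (chr14:20734873-20794157) encodes the gamma subunit of CaMKII. Its coefficient of variation was 1.30% to 5.91% over the 4 groups, and no other of the 10 genes had so low a maximum. WT oocytes read 265, 265 and 271 CPM, and WT eggs read 319, 333 and 332 CPM. The sets were well apart, and the rise was 1.23-fold (log2 0.30, SE 0.07, edgeR adjusted p = 0.00173). Null oocytes at 274, 256 and 251 CPM and Null eggs at 318, 364, 346 and 329 CPM were likewise separate. Their rise was 1.30-fold (0.38, SE 0.06, adjusted p = 8.07e-05 by edgeR).

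Ppp3ca (chr3:136669714-136937727) encodes the alpha catalytic subunit of calcineurin, the calcium- and calmodulin-dependent phosphatase. In WT it read 12.8, 9.95 and 11.9 CPM in oocytes and 12.1, 14.4 and 17.4 CPM in eggs. Egg replicate 1 lay within the oocyte range. The difference of 0.34 (SE 0.14) missed the threshold (edgeR, adjusted p = 0.0592), and without MII WT replicate 1 it passed at 0.46 with adjusted p = 0.0183. Null libraries read 11.6, 14.1 and 11.5 CPM in oocytes and 14.3, 15.0, 15.4 and 15.9 CPM in eggs. They did not overlap, but the difference of 0.29 (SE 0.13) did not pass either (adjusted p = 0.0745 by edgeR). It passed without GV Null replicate 2 (0.39, adjusted p = 0.0405).

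In Null females 7 of the 10 genes passed between GV and MII, 4 higher (Orai1, Cacna1h, Camk2g and Itpr1) and 3 lower (Trpm7, Trpv3 and Stim1). Of all tested genes 49.0% passed in Null, 22.1% higher and 26.9% lower, so 7 of 10 is read against that share. In 6 of the 10 the Null stages did not overlap, against 46.4% of all tested genes. The median was 0.18 for the 10 genes and -0.05 for all. Without GV Null replicates 2 and 3, which leaves GV Null replicate 1 as a lone library assumed to vary like the other groups, 3 of the 10 passed, Cacna1h, Orai1 and Camk2g, against 26.1% of all tested genes. The Null and WT comparisons use separate libraries. Cacna1h, Orai1, Camk2g and Trpm7 passed in both, in the same directions. The larger number of calls in Null is not a measured difference between genotypes, since for 0 of the 10 genes did the test of that difference pass.

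**Figure D2:**
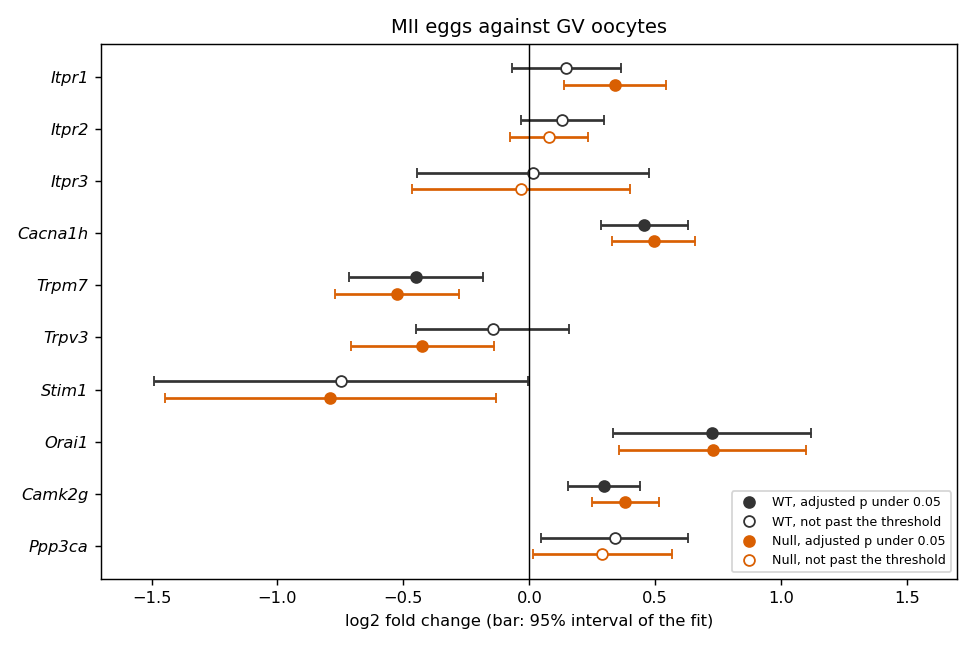
Log2 difference of MII eggs from GV oocytes for each gene, in WT and in Null females, with the 95% interval of the edgeR fit as bars. Filled points have an adjusted p under 0.05: Cacna1h, Orai1 and Camk2g lie to the right and Trpm7 to the left in both genotypes, and Itpr1, Trpv3 and Stim1 are filled in Null only, where the difference between genotypes did not pass the test.

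Loss of Sirena1 left the measured levels of the 10 mRNAs without a difference that passed the test, in GV oocytes and in MII eggs. In GV oocytes 0 of the 10 genes passed edgeR's test, against a background of 0.0546% of all tested genes, which is 11 genes. DESeq2 also called 0 of the 10, and 0.134% of all. By either tool 0 of the 10 had an unadjusted p under 0.05, which 6.66% of all tested genes had by edgeR. The smallest adjusted p was 0.772. In 0 of the 10 were the Null and WT oocyte libraries without overlap, against 12.8% of all tested genes. In MII eggs 0 of the 10 passed, against a background of 0.0546%, again 11 genes. Neither tool gave any of them an unadjusted p under 0.05, which 6.35% of all had by edgeR. DESeq2 called 0 of the 10 and 0.204% of all, and the smallest edgeR adjusted p was 0.837. The egg libraries of the genotypes overlapped for all 10 genes, and they did not for 6.07% of all tested genes.

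The intervals say how large a difference could have gone unseen. They were narrowest for Camk2g, at 0.883-fold to 1.08-fold in oocytes and 0.943-fold to 1.13-fold in eggs. For Cacna1h the Null level was between 0.871 and 1.11 of WT in oocytes and between 0.901 and 1.13 in eggs. Itpr2 was held about as tightly as Cacna1h, and Itpr1 less tightly. For Itpr1 the intervals were 0.779-fold to 1.05-fold in oocytes and 0.899-fold to 1.19-fold in eggs, and for Itpr2 0.89-fold to 1.12-fold and 0.865-fold to 1.07-fold. The channels Trpm7 and Orai1 had wider limits. Trpm7 in Null was between 0.844 and 1.22 of WT in oocytes and between 0.81 and 1.15 in eggs. Orai1 was between 0.752 and 1.30 in oocytes and between 0.768 and 1.27 in eggs. For these genes a difference between genotypes larger than those bounds was outside the 95% interval, and a smaller one was not resolved.

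**Figure D3:**
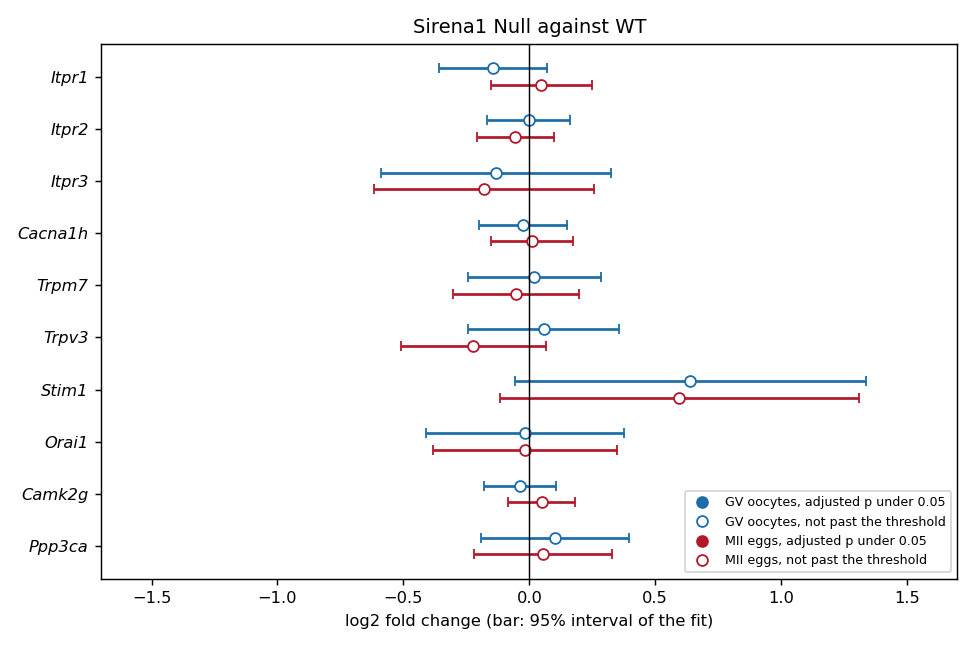
Log2 difference of Sirena1 Null from WT for each gene, in GV oocytes and in MII eggs, with the 95% interval of the edgeR fit as bars. All points are hollow because none had an adjusted p under 0.05, every interval crosses 0, and the intervals of Stim1 and Itpr3 are the widest.

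Stim1 had the largest genotype difference of the 10 genes at both stages, and it did not pass at either. In oocytes it was 0.64 on the log2 scale (SE 0.33, 95% interval -0.06 to 1.34, edgeR adjusted p = 0.772), and in eggs 0.60 (SE 0.34, 95% interval -0.12 to 1.31, edgeR adjusted p = 0.837). The 2 high oocyte values, 3.75 CPM in GV Null replicate 2 and 3.24 CPM in replicate 3, came from the libraries with cumulus marker sums of 861 and 448 CPM. GV Null replicate 1, with a sum of 292 CPM, read 2.06 CPM, within the 1.45 to 2.17 CPM of GV WT. In GV Null replicate 2 stood the highest value of 14 of the 21 cumulus markers. The part of these markers in the Stim1 level was not tested. Without GV Null replicates 2 and 3 the oocyte difference was 0.09. In eggs the marker sums ran from 344 to 377 CPM over both genotypes, while Stim1 ran from 0.763 to 2.36 CPM. Serpine2, Nr5a2 and Cyp19a1 made up most of those sums, which can miss differences in the other markers. MII Null replicate 4, with Stim1 at 2.36 CPM, had Hsd3b1 at 4.79, Cyp11a1 at 3.42 and Gja1 at 1.80 CPM. MII Null replicate 2, with Stim1 at 2.31 CPM, had them at 1.58, 0.28 and 0 CPM.

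**Figure D4:**
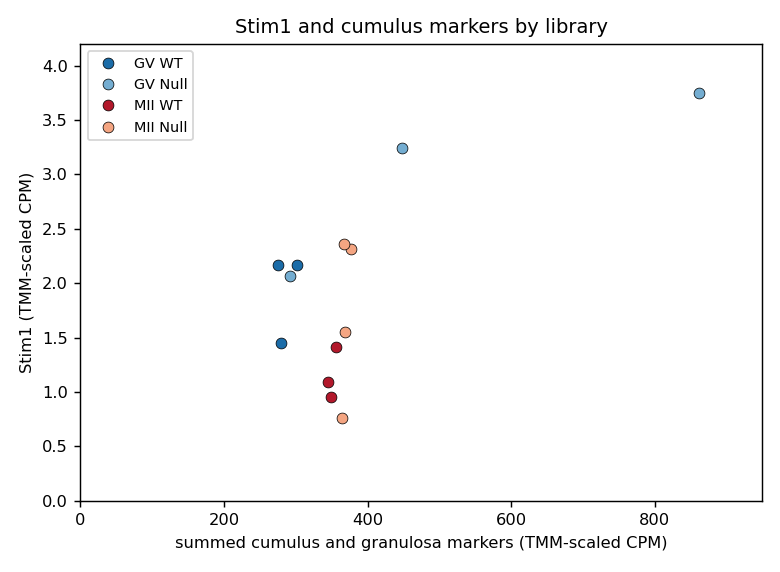
Stim1 level against the summed level of 21 cumulus and granulosa cell markers, both in TMM-scaled CPM, with 1 point for each library coloured by group. GV Null replicates 2 and 3 stand to the right and have the 2 highest Stim1 levels, and the MII Null points span 0.763 to 2.36 CPM at nearly the same marker sum. In eggs that sum is made up mostly of Serpine2, Nr5a2 and Cyp19a1 and can miss differences in the other markers.

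The test of whether the genotype effect differed between stages passed for 0 of the 10 genes, against a background of 0.00496%, which is 1 gene. DESeq2 called 0 of the 10 and 0.00993% of all, and 0 of the 10 had an unadjusted p under 0.05, against 3.38% of all. The largest differences with an SE of at most 0.20 were those of Trpv3 (-0.28, 95% interval -0.69 to 0.14) and Itpr1 (0.19, SE 0.14, 95% interval -0.10 to 0.49). For Stim1 the interval ran from -1.05 to 0.97, the widest of the 10.

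Correlations between the 10 genes over the 13 libraries, which differ in stage and share the scaling, ran from -0.80 to 0.96. Cacna1h and Camk2g had a Pearson r of 0.96 on log2(CPM + 1), Itpr1 and Camk2g 0.82, and Trpm7 and Camk2g -0.80. Itpr3 had an r of -0.42 to 0.29 with the other 9 genes. The genes most like each member were sought among genes with a mean of at least 20 CPM, for the 8 members with a mean of at least 5 CPM, which leaves out Itpr3 and Stim1. Camk2g was most like Wee2 (r = 0.99), an oocyte kinase that keeps CDK1 inhibited, and Reps1 (0.99). Cacna1h was most like Cttnbp2nl (0.99) and Sec16a (0.99), and Itpr1 most like Rad54l2 (0.99) and Ptk2 (0.98), the focal adhesion kinase. The 2 closest were Pds5b and Arhgap11a for Trpm7 (0.96 each), Arpc1b and Eif3i for Orai1 (0.96 each), and Kdm1b (0.93) and Eif3l (0.91) for Trpv3. They were Rbm15b (0.90) and Pias2 (0.89) for Ppp3ca and Gpi1 (0.84) and Scaper (0.83) for Itpr2. These r values are descriptions over 13 libraries.

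Other genes of calcium handling were listed by role in 7 lists, which together held 167 genes, of which 163 were in the count table and 140 were tested. In WT 29 of the 140 were higher in eggs, 27 were lower and 84 did not pass, so 40.0% passed beside the background of 42.7%. In Null 28 were higher and 38 lower, 47.1% beside 49.0%. Without GV Null replicates 2 and 3 the Null counts were 15 higher and 17 lower, where 26.1% of all tested genes passed. The lists did not move as one, and each held genes of both directions.

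Of 23 tested genes of IP3 production, its breakdown and store release, 6 were higher and 5 lower in WT eggs (median -0.01). The sperm factor gene Plcz1 had 0 counts in all 13 libraries. Plcb3, a phospholipase C driven by G proteins, rose from 5.55 ± 0.77 to 8.81 ± 1.59 CPM (SD, n = 3 each; edgeR adjusted p = 0.00358). The PIP2-making kinases diverged: Pip5k1a fell from 9.73 ± 0.50 to 5.67 ± 1.13 CPM (adjusted p = 0.00128 by edgeR) and Pip5k1c rose from 14.0 ± 1.71 to 19.7 ± 0.89 CPM (adjusted p = 0.00164 by edgeR). Plce1, a phospholipase C linked to Ras proteins, was at 213 ± 8.84 and 226 ± 17.4 CPM and did not pass (adjusted p = 0.44 by edgeR). Pi4ka, a kinase at the head of PIP2 synthesis, rose from 105 ± 2.14 to 124 ± 4.70 CPM (adjusted p = 0.0271 by edgeR).

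Of 28 tested genes of calcium entry, 3 were higher, 2 lower and 23 did not pass (median -0.07). The 3 that rose were Cacnb2 (28.3 ± 1.63 to 37.7 ± 2.96 CPM, edgeR adjusted p = 0.00409), Cacnb3 (14.9 ± 0.72 to 19.0 ± 0.74 CPM, adjusted p = 0.0165) and Piezo1 (7.26 ± 0.29 to 9.19 ± 0.59 CPM, adjusted p = 0.0478), a mechanically gated channel. Cacnb2 and Cacnb3 encode beta subunits of voltage-gated calcium channels. Stim2, the other store sensor, was at 67.7 ± 1.66 CPM in GV WT and 61.1 ± 11.6 CPM in MII WT and did not pass (adjusted p = 0.364 by edgeR). Saraf, whose product slows store-operated entry, was at 62.3 ± 4.37 and 64.1 ± 6.25 CPM (adjusted p = 0.812 by edgeR). Of the genes named from this list and the one before as past the threshold in WT, Pip5k1a, Pip5k1c and Cacnb3 passed in Null in the same directions. In Null Plcb3 (0.33, adjusted p = 0.0849), Pi4ka (0.19, adjusted p = 0.0607), Cacnb2 (0.17, adjusted p = 0.171) and Piezo1 (0.11, adjusted p = 0.5) did not pass by edgeR.

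Of 11 tested pump and exchanger genes, 5 rose and 1 fell in WT, with a median of 0.26. Atp2a2, the SERCA2 pump that refills the endoplasmic reticulum, rose from 960.1 ± 10.5 to 1392 ± 12.9 CPM (edgeR adjusted p = 0.000269). Atp2c1, a pump of the Golgi, rose from 462 ± 7.96 to 595 ± 27.0 CPM (adjusted p = 0.00267 by edgeR), while its relative Atp2c2 fell from 57.2 ± 1.08 to 36.5 ± 1.38 CPM (adjusted p = 0.000305 by edgeR). In mitochondria Mcu, the pore of the calcium uniporter, rose from 126 ± 2.43 to 184 ± 12.6 CPM (edgeR adjusted p = 2.92e-05). Smdt1, which encodes the EMRE subunit that the pore needs, fell from 13.8 ± 1.54 to 2.39 ± 0.66 CPM (adjusted p = 9.58e-07 by edgeR). The outer membrane channel gene Vdac3 fell from 159.6 ± 4.52 to 55.2 ± 2.30 CPM (adjusted p = 2.63e-10 by edgeR). The mitochondrial list of 12 tested genes had 3 higher and 3 lower (median 0.06). All 6 of these pump and mitochondrial genes passed in Null too, in the same directions.

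Of 33 tested effector genes, 6 were higher and 6 lower in WT (median -0.02). Wee2 rose from 791 ± 4.55 to 1097 ± 5.38 CPM (edgeR adjusted p = 3.26e-05). Fbxo43, which encodes EMI2, the protein that holds metaphase II arrest and is destroyed after CaMKII acts on it, rose from 184 ± 3.30 to 264 ± 5.62 CPM (adjusted p = 0.000131 by edgeR). Calm3, a calmodulin gene, fell from 13.7 ± 0.13 to 5.93 ± 1.06 CPM (adjusted p = 2.69e-06 by edgeR). Its fall was 2.31-fold in WT and 1.58-fold in Null (adjusted p = 0.00045 by edgeR in Null). The test of the difference between these falls did not pass (adjusted p = 0.999 by edgeR). Chosen after their values were seen, some partners of 2 members were also read. Among them Camk2b, a CaMKII subunit gene, and Ppp3r2, a calcineurin regulatory subunit gene, were called lower in WT eggs and were not called in Null. Camk2d, another CaMKII subunit gene, was at 1.90 ± 0.22 CPM in GV WT and 0.854 ± 0.246 CPM in MII WT (edgeR adjusted p = 0.0418), and the calcineurin regulatory subunit gene Ppp3r1 rose from 126 ± 3.43 to 171 ± 11.5 CPM (adjusted p = 0.000355 by edgeR).

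Among 16 tested genes of calcium-binding proteins of the endoplasmic reticulum and cytosol, 2 were higher and 6 lower in WT (median -0.21). Calr, which encodes calreticulin, the main calcium buffer of the endoplasmic reticulum, fell from 226 ± 5.86 to 158 ± 8.69 CPM (edgeR adjusted p = 2.61e-05), and its relative Calr3 from 21.6 ± 1.06 to 15.2 ± 0.70 CPM (adjusted p = 0.000423 by edgeR). Rcn2, a reticulocalbin gene, rose from 88.6 ± 2.70 to 126 ± 10.1 CPM (adjusted p = 0.000107 by edgeR). The 2 list genes highest in level were the chaperones Hsp90b1, at 349.6 ± 18.6 and 347 ± 26.4 CPM (adjusted p = 0.929), and Canx, which rose from 290.1 ± 6.68 to 356 ± 15.5 CPM (adjusted p = 0.0049 by edgeR). Of 17 tested genes of exocytosis, 4 were higher and 4 lower (median 0.18). Astl, which encodes ovastacin, the cortical granule protease that hardens the zona pellucida, fell from 218 ± 17.8 to 92.9 ± 20.9 CPM (edgeR adjusted p = 0.000402). The syntaxin gene Stx4a fell from 18.3 ± 1.66 to 8.97 ± 1.02 CPM (adjusted p = 5.41e-06 by edgeR). Nsf, the ATPase that takes SNARE complexes apart, rose from 402 ± 6.16 to 469 ± 27.1 CPM (adjusted p = 0.0127 by edgeR).

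**Figure D5:**
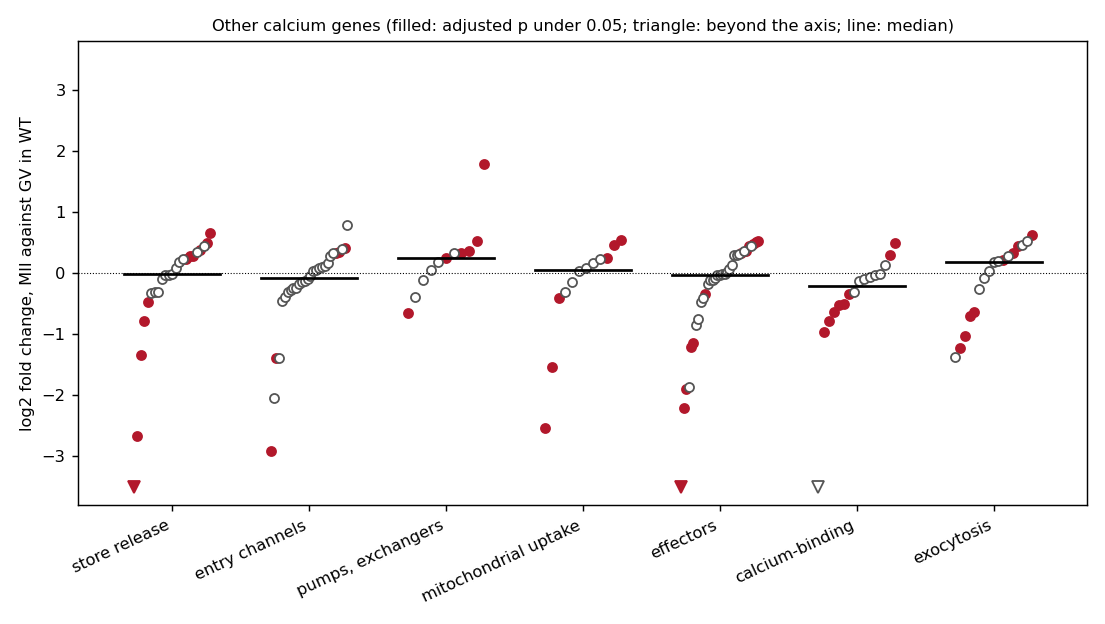
Log2 difference of MII eggs from GV oocytes in WT for the tested genes of the 7 other calcium lists, sorted by value within each list, with the list's median as a line. Filled points have an adjusted p under 0.05, and triangles mark 3 genes beyond the axis limit of 3.5; pumps and exchangers have the highest median (0.26) and calcium-binding proteins the lowest (-0.21).

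Between genotypes 0 of the 140 genes passed edgeR's test in GV oocytes, in MII eggs or in the difference between them. At an unadjusted p under 0.05 there were 13 of the 140 in oocytes, 9 in eggs and 8 in the difference, beside 6.66%, 6.35% and 3.38% of all tested genes. DESeq2 called 0 of the 140 in each. Without GV Null replicate 1, which leaves the 2 libraries with raised cumulus marker sums, 3 of the 140 passed in oocytes, all higher in Null, where 139 of 20884 tested genes (0.666%) passed. They were S100a11, Camkk2 and Marcks, named here after their values were seen. Without the filter on low counts 6 of the 140 passed in oocytes, 2 in eggs and 1 in the difference. Of these, 5 in oocytes and 2 in eggs were higher in Null. Calls over all genes also rose, to 644 (1.63%), 290 (0.732%) and 157 (0.397%), which are smaller shares than those of the 140. Rcn1 and Itpkb, named after their values were seen, passed at both stages.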

How the data were processed

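Messenger RNA of 13 pools was sequenced. The authors deposited raw counts per gene with no normalization, and per the submitters' processing notes used STAR 2.5.3a, bedtools 2.26.0 and GRCm38.p6. No source used here names the counting tool or strand setting. Of 54232 gene IDs, 54079 had a symbol in the names table.

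Counts were fitted with edgeR 4.0.16 (R 4.3.3): all 13 libraries in 1 model of 4 groups, TMM factors, filterByExpr, robust glmQLFit and glmQLFTest, two-sided, Benjamini-Hochberg over 20143 genes, threshold 0.05. The SE is the log2 difference divided by the root of F. Alternatives were RLE and upper-quartile factors, other filters, a replicate block, only the groups compared, DESeq2 1.42.0 and left-out libraries. The code was tested on simulated data. Intervals and SEs come from the spread between pools in the fit.

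The 10 genes, the lists and the tests were chosen with earlier results of these data known. In each list the text names up to 3 genes with the smallest p for WT maturation (at least 5 CPM, no overlap), the 2 highest in level, up to 4 called between genotypes, and Plcz1; likeness takes 2 genes for each member. Some genes that this rule names are not reported here. Gene positions are RefSeq's.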

Additional observations from a re-analysis of the deposited data

Results flagged for a closer look

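Among 39 genes named above that were tested for a stray library in MII Null, the group of 4 libraries, 1 had a library far from the others. Atp2c1, the Golgi calcium pump gene, read 525.1 CPM in MII Null replicate 1 and 595.4 to 599.2 CPM in the other 3, a gap of 0.948 of the group's range, above Dixon's 95% critical value for 4 samples. Chance alone flags about 1 in 20 groups. Itpr1 was also lowest in that library, at 189.8 CPM against 237 to 265 CPM, with a gap of 0.636 of the range, below the critical value.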

How the results depend on the processing

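In WT the number of the 10 genes that passed between stages was 4, 3 to 5 when 1 library was left out, and 4 to 6 under the other settings (DESeq2 4). In Null it was 7, 5 to 7 with 1 library left out, and 3 without GV Null replicates 2 and 3. Between genotypes, and for the difference between stages, it was 0 under every setting run. The number with an unadjusted p under 0.05 was 0 in the main fit. In GV oocytes it was 2 without GV Null replicate 1, and 1 without the filter or with only the groups compared. In MII eggs it was 1 without the filter or without MII Null replicate 3. For the difference it was 1 without MII Null replicate 1. Under the other settings it was 0. Upper-quartile scaling, which shifted all genes by 0.06 in both stage comparisons, added Ppp3ca (0.40, adjusted p = 0.0282) and Itpr2 (0.19, adjusted p = 0.0475) in WT and Ppp3ca in Null (adjusted p = 0.0328), and it dropped Stim1 in Null (adjusted p = 0.0654). Fitting only the groups compared added Stim1 in WT (-0.79, adjusted p = 0.0179) and dropped it in Null (adjusted p = 0.0909). A minimum of 5 CPM in 3 libraries leaves out Itpr3 and Stim1, and shifted the genes kept by -0.10 in WT and -0.13 in Null. The cause of these changes was not tested.

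Replicate numbers gave no sign of pairing the pools. Deviations of same-numbered pools from their group means correlated between -0.221 and 0.225, and those of pools with different numbers between -0.308 and 0.269. The labels do not state a pairing, and this check cannot settle whether there was one. With a replicate block, 4 genes passed in WT and 7 in Null, the same genes. Over all genes the genotype counts moved most. In GV oocytes 11 genes became 27 with DESeq2, 644 without the filter, 1 without GV Null replicates 2 and 3, and 6 to 139 with 1 library left out. In MII eggs 11 became 41 with DESeq2, 290 without the filter and 4 to 12 with 1 library left out. The difference between stages had 1, 2 with DESeq2, 157 without the filter and 0 with the block. The 9867 of 20143 genes called in Null maturation became 6569 with the 5 CPM minimum. That minimum left 11054 of the genes, so the lower count is not a lower share. Depth limits Stim1 and Itpr3 most, with Stim1 at 24 to 143 counts a library.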
